A study of Mus musculus with 6 samples.

Results

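The genes of the proteasome, the protease complex that breaks down most ubiquitin-tagged proteins of a cell, were followed in cultured mouse muscle stem cells labelled wild type or Pnpla2 knockout. Members were the protein-coding genes whose symbol starts with Psma, Psmb, Psmc, Psmd, Psme, Psmf or Psmg and a number, except Psmb8 and Psmb9, which are not analysed here. This rule gave 47 of the 20588 genes in the deposited table, chosen by name and not by any measured value. Satellite cells, the stem cells of skeletal muscle, had been sorted by flow cytometry from the hind limbs of mice of the strain C57BL/6NJ at an age of 2 months, either wild type (WT, 3 libraries) or carrying a Pnpla2 knockout that the submitters name Pnpla2PKO (PKO, 3 libraries). Cells of both groups were grown for 7 days and then kept for 16 h in DMEM with 2% horse serum, a low-serum medium that lets myoblasts differentiate, before polyadenylated RNA was sequenced. The sources used here do not give what the P in PKO stands for, any Cre driver, or whether animals were pooled. The labels do not say that replicates came from separate animals or cultures, so p-values rest on a spread between libraries that may be technical.

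The proteasome core, the 20S particle, is a barrel of 2 outer alpha rings and 2 inner beta rings, and 3 of the beta subunits cut peptide bonds inside the chamber. The 19S particle caps the barrel: its ATPase ring unfolds substrates and opens the gate, and its other subunits bind ubiquitin chains and remove them. Chaperones help to build both particles, other caps (the activators PA28 and PA200) can replace the 19S particle, and muscle uses this system to turn over contractile proteins during growth and wasting. Of the members, 7 encode the alpha ring, 7 the beta ring, 6 the ATPases and 11 the other 19S subunits, which together are the 31 constitutive subunits described here. The rest are 2 alternative beta subunits, 3 chaperones of the 19S particle, 4 chaperones of the 20S particle, 5 activators and the regulator PI31 (Psmf1). The name rule also caught 1 gene that encodes no proteasome subunit, Psmc3ip, a cofactor of meiotic recombination.

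Library depth was similar in both groups, with 15580176 to 18839151 counted reads per library. Pnpla2, which encodes adipose triglyceride lipase, the enzyme of the first step of triglyceride breakdown, was measured at 21.1, 38.5 and 33.7 CPM (read counts scaled to library size, with TMM factors) in WT libraries 1 to 3 and at 8.47, 16.0 and 15.5 CPM in PKO libraries 1 to 3. All PKO libraries lay below all WT libraries, but reads remained, and the sources used here do not name the deleted part of the gene. Its log2 fold change, PKO over WT, was -1.22 ± 0.31 (SE). In edgeR's quasi-likelihood test its Benjamini-Hochberg adjusted p was 0.190, with DESeq2 it was 0.00796, and an exact two-sided permutation test of 3 against 3 libraries gave p = 0.1, the smallest it can give. The myogenic list (9 genes, Myog and Des the most abundant) held 10612 to 11266 CPM in WT and 8004 to 10770 CPM in PKO libraries, which goes with the labelled cell type. Other cell types' markers were not even over the libraries. The 11 stromal markers in the table summed to 318 to 441 CPM in WT libraries and to 578, 2701 and 1776 CPM in PKO libraries 1, 2 and 3. WT 1 and PKO 1 also stood apart: cell cycle genes summed to 156 CPM in WT 1 against 764 and 808 CPM in WT 2 and WT 3, and stromal markers were lowest among PKO libraries in PKO 1. In bulk RNA, fewer cells of a type and less RNA per cell cannot be told apart.

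Proteasome genes were expressed at nearly the same level in WT and PKO cells. Of the 47 members, 46 passed the filter on low counts, 23 with a higher and 23 with a lower fitted level in PKO, against 48.3% of all 14025 tested genes fitted higher. The median log2 fold change was 0.00 over the members and -0.02 over all tested genes. By edgeR's quasi-likelihood test 0 of 46 members passed an adjusted p of 0.05, and so did 0 of all tested genes (0%), so this count says nothing particular about the members. DESeq2 also called 0 of 46, while it called 5.66% of the 16192 genes it tested. At an unadjusted p under 0.05 there was 1 member, 2.17% of them, against 16.5% of all tested genes. That member was higher in PKO, as were 10.2% of all tested genes at this threshold, and 0 members were lower, against 6.35% of all tested genes.

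The measured differences were small as well as uncalled. The log2 fold change lay within 0.25 of 0 for 42 of 46 members, or 91.3%, against 50.4% of all tested genes. The 95% interval of the fold change stayed within a 2-fold change in either direction for 44 of 46 members (95.7%, against 62.4% of all tested genes). The exceptions were Psme2b and Psmc3ip, both of low abundance. Over the 31 constitutive subunits, 15 were fitted higher and 16 lower, fold changes ran from -0.18 to 0.13 on the log2 scale, and no interval reached past -0.49 or 0.49. The 3 PKO libraries did not overlap the 3 WT libraries for 5 of 46 members (10.9%, against 21.5% of all tested genes): Psme2 lay higher (1 of 46, against 11.8% of all tested genes), and Psmd1, Psmd2, Psmd3 and Psme4 lay lower (8.7%, against 9.7%). The members are mostly abundant, and abundant genes varied less in these libraries: the median SD of log2 CPM over the 6 libraries was 0.14 for the members, 0.29 for all tested genes and 0.22 for the most abundant of 5 equal classes of them, which holds 34 of the members.

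**Figure D1:**
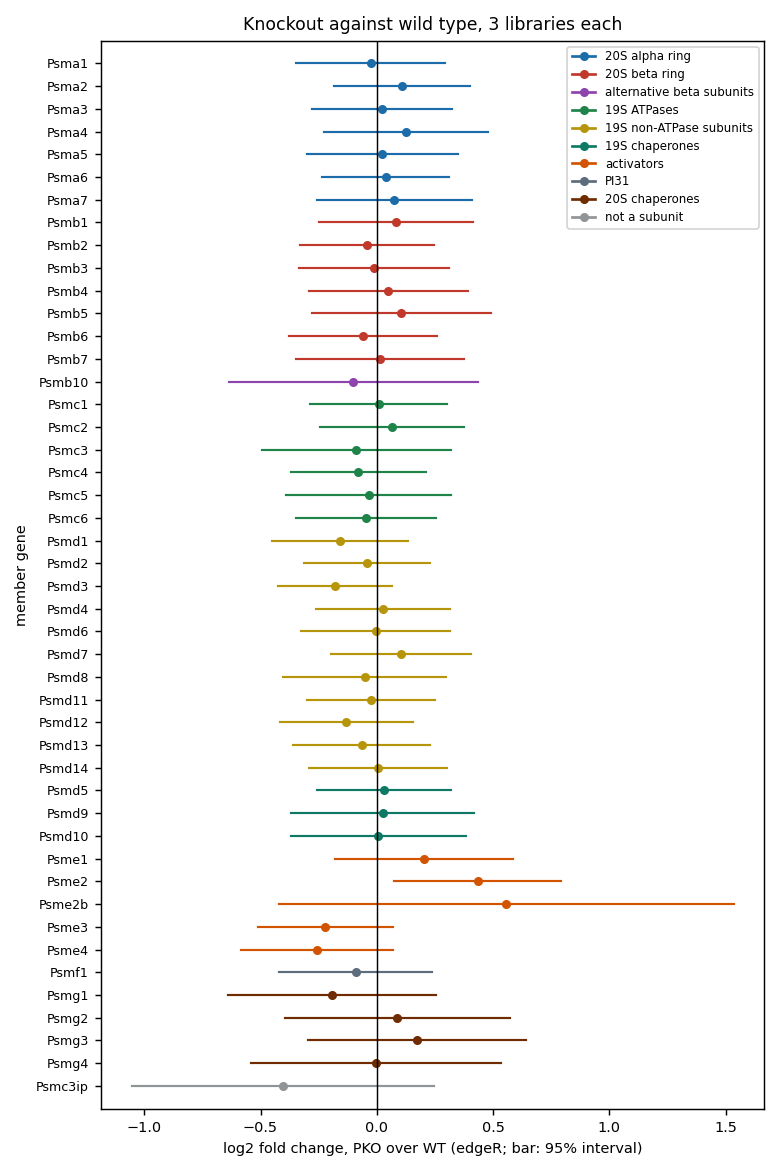
Log2 fold change, PKO over WT, of the 46 tested members with its 95% interval from edgeR's quasi-likelihood fit on 3 libraries per group, coloured by role. Points of the 31 constitutive subunits sit between -0.18 and 0.13, and the widest departures belong to Psme2b, Psme2 and Psmc3ip.

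The alpha ring forms the gated entrance of the barrel. All 7 of its genes (Psma1 to Psma7) were abundant, 6 of 7 had a fitted value above 0, and none passed the test. Psma2 was measured at 165, 147 and 154 CPM in WT and at 163, 152 and 188 CPM in PKO libraries, a log2 fold change of 0.11 ± 0.12 (SE, edgeR adjusted p = 0.679). Psma4 gave 119, 105 and 119 CPM in WT and 117, 107 and 149 CPM in PKO libraries (0.13 ± 0.15, edgeR adjusted p = 0.693). In both genes PKO 3 was the highest library and the other PKO libraries lay among the WT values. Psma7 gave 134, 155 and 153 CPM in WT and 151, 134 and 180.1 CPM in PKO libraries (0.08 ± 0.14). Psma6 gave 114, 111 and 119 CPM in WT and 119, 105 and 128 CPM in PKO libraries (0.04 ± 0.12). Here too PKO 3 was highest and PKO 2 lowest or level with the lowest, a pattern that recurs across the complex and is taken up after the roles. Psma1, Psma3 and Psma5 had fold changes of -0.03 to 0.02, with adjusted p of 0.939 to 0.949.

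The beta ring holds the active sites: Psmb5 carries the chymotrypsin-like, Psmb6 the caspase-like and Psmb7 the trypsin-like activity. None of its 7 genes passed the test, and 4 of 7 had a fitted value above 0. Psmb5 (ENSMUSG00000022193, chr14:54614120-54617995, minus strand, GRCm38) was measured at 182, 141 and 142 CPM in WT and at 169, 141 and 191 CPM in PKO libraries. The groups overlapped fully, WT 1 being the second highest library, and the log2 fold change was 0.11 ± 0.16 (SE, edgeR adjusted p = 0.764). Psmb6 (ENSMUSG00000018286, chr11:70525367-70527858, plus strand) gave 204, 177 and 175 CPM in WT and 177, 157 and 199.6 CPM in PKO libraries (-0.06 ± 0.14, adjusted p = 0.850). Psmb7, given with the other catalytic subunits, gave 226, 191 and 196 CPM in WT and 209, 172 and 238 CPM in PKO libraries (0.01 ± 0.15). For these 3 catalytic subunits PKO 2 was the lowest library and WT 1 or PKO 3 the highest. Of the structural beta subunits, Psmb1 gave 229, 207 and 218 CPM in WT and 228, 198 and 267 CPM in PKO libraries (0.08 ± 0.14). Psmb4 gave 176, 150.3 and 164 CPM in WT and 171, 143 and 194 CPM in PKO libraries (0.05 ± 0.15). Both spanned the WT range on either side. Psmb2 and Psmb3 had fold changes of -0.04 and -0.01. Reads of Psmb7 share 405 exonic bases with the oppositely oriented Nek6 in GENCODE M21, and the sources used here do not say whether counting used strand, so that share of Psmb7 is uncertain.

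The ATPase ring pulls substrates into the core. Of its 6 genes 2 had a fitted value above 0, 4 below, and none passed the test. Psmc4 was measured at 176, 163 and 182 CPM in WT and at 169.6, 145 and 179 CPM in PKO libraries, a log2 fold change of -0.08 ± 0.12 (SE, edgeR adjusted p = 0.771). Psmc3, the most abundant ATPase transcript, gave 522, 431 and 439 CPM in WT and 485, 348 and 478 CPM in PKO libraries (-0.09 ± 0.17). PKO 2 was the lowest library for both, while PKO 1 and PKO 3 fell inside the WT range. Psmc2 gave 201, 169 and 177 CPM in WT and 190.3, 171 and 211 CPM in PKO libraries (0.07 ± 0.13). Psmc6 gave 217, 184 and 199 CPM in WT and 199, 173 and 209.7 CPM in PKO libraries (-0.05 ± 0.13). Groups overlapped for all 6 genes, Psmc1 (0.01) and Psmc5 (-0.03) included.

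The other 19S subunits include the scaffolds Psmd1 and Psmd2, the ubiquitin receptor Psmd4, the deubiquitinase Psmd14 with its partner Psmd7, and the lid subunits Psmd3, Psmd6, Psmd8, Psmd11, Psmd12 and Psmd13. Of the 11 genes 3 had a fitted value above 0 and 8 below. None passed the test, and 3 had groups that did not overlap, all lower in PKO, as were 9.7% of all tested genes. Psmd3 (ENSMUSG00000017221, chr11:98682554-98695979, plus strand) was measured at 213, 231 and 222 CPM in WT and at 195, 195 and 198 CPM in PKO libraries. The PKO values were tight and all below the WT values, with a log2 fold change of -0.18 ± 0.10 (SE, 95% interval -0.43 to 0.06, edgeR adjusted p = 0.411). Psmd1 (ENSMUSG00000026229, chr1:86064387-86139151, plus strand) gave 289, 287 and 296 CPM in WT and 286, 265 and 232 CPM in PKO libraries. PKO 1 lay just below the lowest WT library, and PKO 3 was the lowest of all. Its fold change was -0.16 ± 0.12 (95% interval -0.45 to 0.14, adjusted p = 0.547). Psmd2, named here because its groups did not overlap, gave 503, 501 and 515 CPM in WT and 499, 479 and 496 CPM in PKO libraries (-0.04 ± 0.12). The gap between its groups was small beside the spread within PKO. Psmd12 gave 166, 149.9 and 162 CPM in WT and 158, 128 and 149.6 CPM in PKO libraries (-0.13 ± 0.12). Psmd7 gave 197, 174 and 190.4 CPM in WT and 205, 177 and 222 CPM in PKO libraries (0.10 ± 0.13). Groups overlapped for both. Psmd4, Psmd6, Psmd8, Psmd11, Psmd13 and Psmd14 had fold changes of -0.06 to 0.03.

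**Figure D2:**
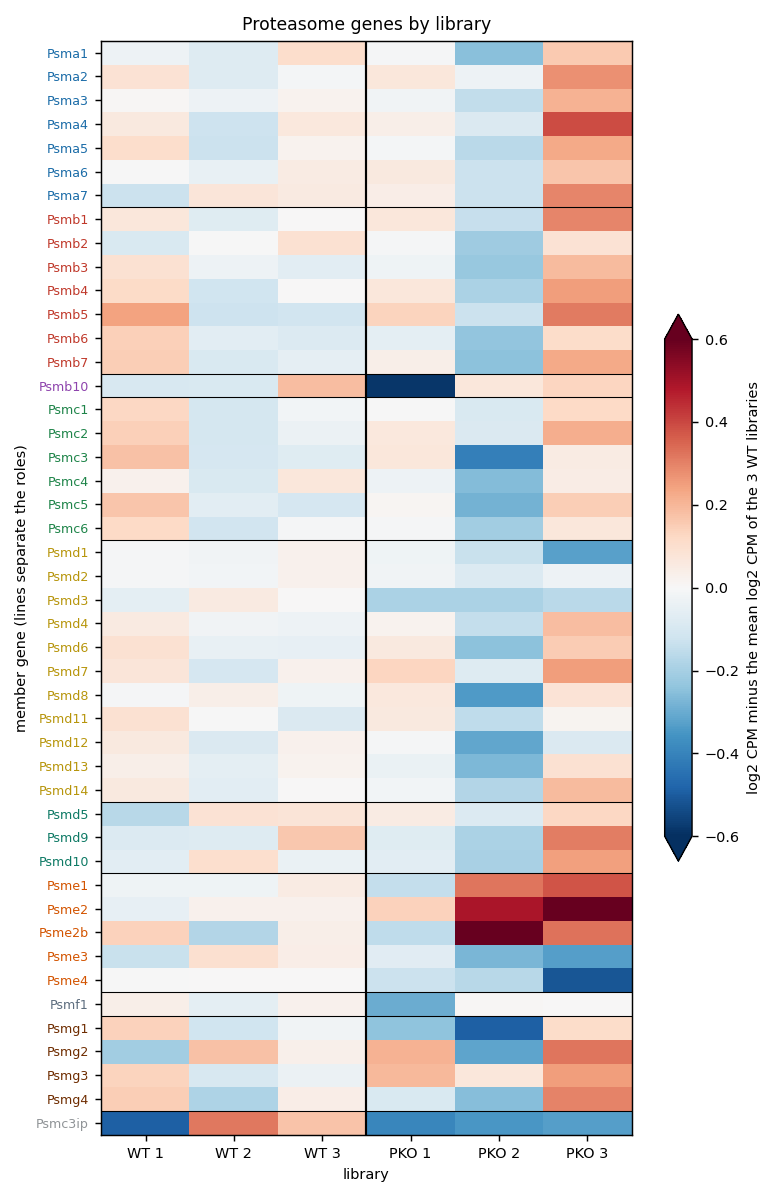
Log2 CPM of each tested member in each of the 6 libraries, as the difference from the mean log2 CPM of the 3 WT libraries, with members in rows by role. The PKO 3 column is mostly above and the PKO 2 column mostly below the WT mean for the core and 19S genes, while the 2 PA28 rows Psme1 and Psme2 are above it in both.

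The assembly chaperones had low levels beside the subunits they help to place, and none passed the test. For the 19S base, Psmd5 was measured at 75.0, 89.3 and 88.7 CPM in WT and at 87.1, 79.4 and 91.7 CPM in PKO libraries (log2 fold change 0.03 ± 0.12, SE). Psmd9 gave 32.4, 32.5 and 38.4 CPM in WT and 32.6, 30.0 and 42.4 CPM in PKO libraries (0.03 ± 0.17). Psmd10, also known as gankyrin, gave 21.8, 24.4 and 22.2 CPM in WT and 21.8, 19.9 and 27.0 CPM in PKO libraries (0.01 ± 0.16). All 3 had PKO 3 as the highest library and overlapped between the groups. A lincRNA of the opposite strand, Gm26745, covers 1849 of the 2634 bases of Psmd9. The sources used here do not say whether counting used strand, so the Psmd9 count is uncertain to that extent. The alpha-ring chaperones work as pairs, Psmg1 with Psmg2 and Psmg3 with Psmg4. Psmg1 gave 23.5, 19.6 and 21 CPM in WT and 18.0, 15.1 and 23 CPM in PKO libraries (-0.19 ± 0.19). Psmg2 gave 18.6, 24.4 and 22.0 CPM in WT and 24.9, 17.2 and 26.9 CPM in PKO libraries (0.09 ± 0.21). The partners of this pair had fold changes of opposite sign and intervals that cover 0. Psmg3 gave 7.09, 6.02 and 6.29 CPM in WT and 7.41, 6.77 and 7.70 CPM in PKO libraries (0.17 ± 0.20). Psmg4 gave 8.68, 6.88 and 8.04 CPM in WT and 7.35, 6.54 and 9.65 CPM in PKO libraries (-0.00 ± 0.23). Of these 4 genes PKO 2 was the lowest library for all but Psmg3.

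The activator genes had some of the larger fitted differences, in both directions. They are alternative caps: Psme1 and Psme2 encode the alpha and beta chains of PA28, which interferon induces, Psme3 encodes the nuclear PA28 gamma, and Psme4 encodes PA200. Psme2 (ENSMUSG00000079197, chr14:55587441-55591113, minus strand) was measured at 28.0, 29.5 and 29.4 CPM in WT and at 31.9, 40.7 and 44.7 CPM in PKO libraries. Every PKO library lay above every WT library, PKO 1 by the least. Its log2 fold change was 0.43 ± 0.15 (SE, 95% interval 0.07 to 0.79), and its unadjusted edgeR p of 0.0243 became 0.253 after adjustment over all tested genes. The authors' deposited table gives it a log2 fold change of 0.41 and an adjusted p of 0.209, the smallest of any member there. Leaving out WT 1 and PKO 1, an alternative chosen after seeing the data, brought the edgeR adjusted p to 0.0499 with a fold change of 0.54, in a setting that called 15.9% of all tested genes; over the 16 alternatives the adjusted p ran from 0.0499 to 0.616. Its partner Psme1 (ENSMUSG00000022216, chr14:55578123-55581529, plus strand), which lies beside it and is given here for that reason, was measured at 30.1, 30.1 and 31.7 CPM in WT and at 27.7, 38.2 and 39.9 CPM in PKO libraries. PKO 2 and PKO 3 lay above the WT range and PKO 1 below it, with a fold change of 0.20 ± 0.16 (edgeR adjusted p = 0.552). Per length, Psme2 stood at 1.92, 2.02 and 1.91 times the FPKM of Psme1 in WT and at 2.38, 2.20 and 2.31 times in PKO libraries. The size of this ratio rests on the deposited length of Psme1 (1986 bases): over the 6 libraries it was 2.14, and 1.19 with principal transcript lengths (1112 bases for Psme1).

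Psme4 (ENSMUSG00000040850, chr11:30771726-30880361, plus strand) was measured at 302, 303 and 303 CPM in WT and at 277, 270.0 and 212 CPM in PKO libraries. The WT values were almost equal and every PKO library lay below them, PKO 3 by the most. Its log2 fold change was -0.26 ± 0.14 (SE, 95% interval -0.58 to 0.07, edgeR adjusted p = 0.384). Psme3 (ENSMUSG00000078652, chr11:101316213-101323537, plus strand) gave 128, 150.5 and 145 CPM in WT and 135, 117 and 112 CPM in PKO libraries (-0.22 ± 0.12, adjusted p = 0.398). PKO 2 and PKO 3 lay below all WT libraries, while PKO 1 lay within them. Psme2b, a near-copy of Psme2 on chromosome 11, gave 1.65, 1.31 and 1.53 CPM in WT and 1.33, 3.41 and 1.90 CPM in PKO libraries (0.56 ± 0.42, adjusted p = 0.522). Reads that fit both copies may have been split or dropped in the counting, so both values are uncertain to that extent.

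**Figure D3:**
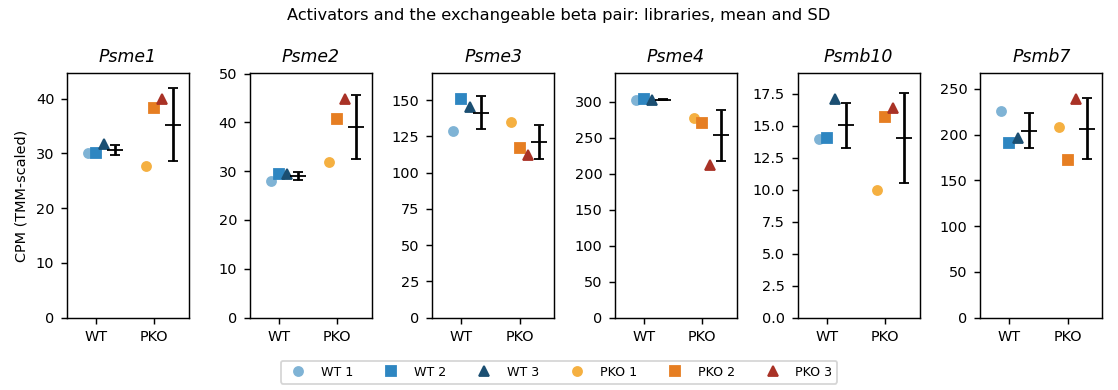
CPM of the activators Psme1, Psme2, Psme3 and Psme4 and of the alternative beta subunit Psmb10 with its counterpart Psmb7 in each of the 6 libraries, with the mean and SD of each group (3 libraries each). Psme2 reads 28.0 to 29.5 CPM in WT and 31.9 to 44.7 CPM in PKO libraries, and PKO 1 is the PKO library nearest to WT for Psme2, Psme3 and Psme4.

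The libraries in which Psme1 and Psme2 were highest, PKO 2 and PKO 3, also had high levels of other gene lists. Psme3, the gene of PA28 gamma, was lowest in these same libraries. The interferon response list (9 genes, B2m and Ifit1 the most abundant) had median log2 differences from the WT mean of 0.56, 2.69 and 1.84 in PKO libraries 1, 2 and 3, and of -0.15 to 0.24 in WT libraries. It had 8 of 9 genes fitted higher, against 48.3% of all tested genes. At an unadjusted edgeR p under 0.05 there were 4 of 9, against 16.5%, and 0 at an adjusted p of 0.05. DESeq2 called 3 of 9, against 5.66% of all genes it tested. The stromal list, 8 of whose 11 measured markers were tested, had medians of 0.91, 4.51 and 4.71 in PKO libraries and of -0.25 to 0.37 in WT libraries. No stromal marker in the table was at 0 in all libraries, 1 averaged under 1 CPM, and Tcf21 was not in the table. B2m, the light chain of class I antigen-presenting molecules, was measured at 128, 97.2 and 101 CPM in WT and at 159, 325 and 302 CPM in PKO libraries. Ifit1, an interferon-induced RNA-binding protein, gave 85.3, 5.70 and 12.3 CPM in WT and 52.2, 118 and 65.4 CPM in PKO libraries. Its groups overlapped, since WT 1, the library lowest for Psme2, lay above PKO 1 and PKO 3. Col1a2, a fibrillar collagen of stromal cells, gave 51.9, 28.9 and 31.9 CPM in WT and 65.2, 856 and 499.5 CPM in PKO libraries. Whether these lists have a part in the Psme1 and Psme2 values was not tested.

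Of the alternative beta subunits and PI31, none passed the test. Psmb10, which takes the place of Psmb7 in the immunoproteasome, was measured at 14, 14.1 and 17.1 CPM in WT and at 9.97, 15.7 and 16.4 CPM in PKO libraries. PKO 1 was the lowest library and the others lay within the WT range, for a log2 fold change of -0.10 ± 0.23 (SE, edgeR adjusted p = 0.845). On the FPKM scale its level was 5.66%, 6.73% and 7.94% of that of Psmb7 in WT and 4.36%, 8.34% and 6.29% in PKO libraries. Psmb11, the beta subunit of thymic epithelium, had 3, 0 and 0 reads in WT and 3, 3 and 1 reads in PKO libraries and was the 1 member not tested. Psmf1, which encodes PI31, gave 27.9, 26.1 and 27.7 CPM in WT and 22.2, 27.4 and 27.3 CPM in PKO libraries (-0.09 ± 0.14). Only PKO 1 departed. Psmc3ip, which is no subunit, gave 4.08, 7.20 and 6.51 CPM in WT and 4.37, 4.50 and 4.57 CPM in PKO libraries (-0.40 ± 0.28, adjusted p = 0.486). Its WT 1 value was the lowest of all, and 385 of its exonic bases overlap Mlx on the other strand.

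More than by genotype, proteasome genes were ordered by library. PKO 3 was the highest of the 6 libraries for 27 of 46 members (58.7%, against 20.3% of all tested genes) and PKO 2 was the lowest for 30 of 46 (65.2%, against 21.6%). PKO 3 stood above PKO 2 for 41 of 46 members, or 89.1%, against 50.5% of all tested genes, with a median difference of 0.33 on the log2 scale. Relative to the WT mean, the members' median log2 CPM was 0.06, -0.06 and 0.02 in WT libraries 1 to 3 and -0.01, -0.17 and 0.16 in PKO libraries 1 to 3. Summed over all members, proteasome transcripts took 7292, 6811 and 7001 CPM in WT and 7057, 6184 and 7479 CPM in PKO libraries, or 0.630% to 0.774% of the counted reads. PKO libraries therefore marked both ends, and PKO 1 lay within the WT range. The pattern held by role for the rings: PKO 3 was highest for 7 of 7 alpha genes and 5 of 7 beta genes, and PKO 2 was lowest for 5 of 7 and 7 of 7. It was weaker for the ATPases, with PKO 3 highest for 1 of 6 and PKO 2 lowest for 4 of 6. Among the 11 other 19S subunits PKO 3 was highest for 6 and PKO 2 lowest for 9; among the activators PKO 2 was lowest for none of 5.

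The high place of PKO 3 went with gene length, and the low place of PKO 2 less so. Proteasome genes are short: with the tested genes split by length into 5 classes of nearly equal size, 28 of the 46 members fall in the shortest class, which runs from 78 to 1696 bases of deposited gene length. All genes of that class together had medians of -0.10 in PKO 2 and 0.20 in PKO 3 relative to the WT mean, and those of the longest class 0.06 and -0.29. Psme4, with 6491 bases the only member in the longest class, was lowest in PKO 3. Across genes, which are not independent replicates, Spearman's rho between length and the PKO 3 value was -0.52 over the 46 members and -0.27 over all tested genes. For the PKO 2 value rho was 0.10 over the members, 0.10 over all tested genes and -0.00 over the 31 constitutive subunits. Within the shortest class the members' median in PKO 3 was 0.21, against 0.20 for all its genes, and in PKO 2 it was -0.19, against -0.10. By count, PKO 3 was highest for 67.9% of the 28 members and 38.9% of the 2808 genes, and PKO 2 lowest for 71.4% and 32.8%. After a smooth trend of each library's values on length was removed, an alternative chosen after seeing the data, PKO 3 was highest for 9 of 46 members (19.6%, against 17% of all tested genes). PKO 2 was then lowest for 20 of 46 (43.5%, against 20.8%). The members' medians became -0.12 in PKO 2 and 0.02 in PKO 3. Psme2 kept a log2 fold change of 0.40 in that setting, with an edgeR adjusted p of 0.229.

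**Figure D4:**
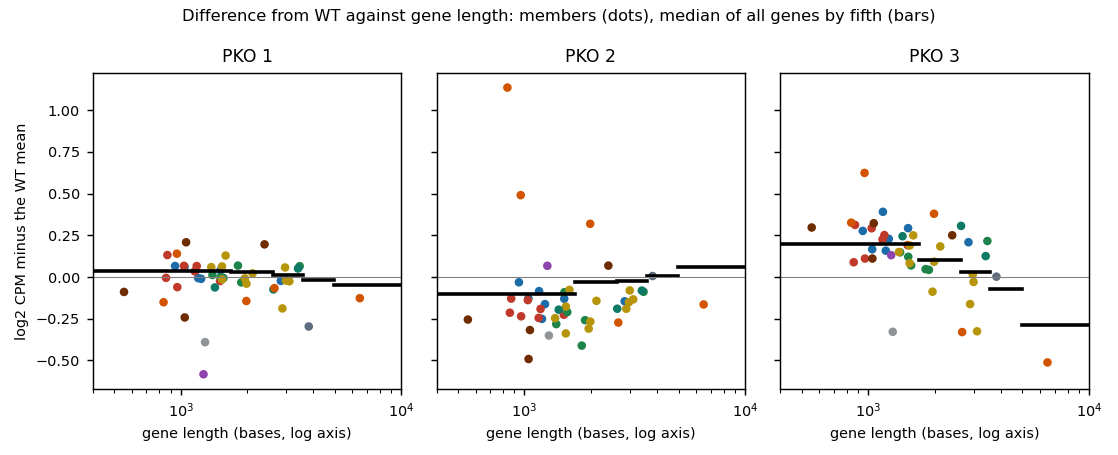
Log2 CPM relative to the mean of the 3 WT libraries against deposited gene length (log axis, bases), for each member in PKO 1, PKO 2 and PKO 3, with dots coloured by role and horizontal bars at the median of all tested genes in each of 5 length classes. The bars fall from 0.20 to -0.29 from the shortest to the longest class in PKO 3 and climb from -0.10 to 0.06 in PKO 2.

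The direction fitted for the members depended on which PKO libraries entered. Without PKO 3 only 6 of 46 members were fitted higher, with a median log2 fold change of -0.09, and without PKO 2 there were 36, with a median of 0.10. Scaling moved the split too, from 23 of 46 higher to 34 with library size alone and to 16 with the length trend removed. The fitted sign changed in at least 1 of the 16 alternatives for 33 members. It stayed higher for 6 (Psma2, Psmd7, Psme1, Psme2, Psme2b and Psmg3) and lower for 7 (Psmc3ip, Psmd1, Psmd12, Psmd3, Psme3, Psme4 and Psmg1).

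Subunits that enter the particle in equal copy number did not have equal transcript levels. Levels between genes are compared in the authors' FPKM (reads scaled to gene length and library size), as means over the 6 libraries. In the alpha ring they ran from 72.4 FPKM for Psma3 through 109 FPKM for Psma1, the median, to 171 FPKM for Psma2. In the beta ring they ran from 113 FPKM for Psmb3 through 177 FPKM for Psmb7 to 217 FPKM for Psmb1. The 14 core genes thus spanned 2.996-fold, and 2.84-fold to 3.12-fold within single libraries. The middle of the alpha ring was close together: Psma7, Psma4, Psma1, Psma6 and Psma5 stood at 99.8, 103, 109, 111 and 114 FPKM, and neighbours in this order differed by less than their SD within a group, which reached 20.7 FPKM. That SD includes shifts between libraries that the genes share, and each of these neighbour pairs changed order in some library. The catalytic genes Psmb7, Psmb5 and Psmb6 stood at 177, 185 and 188 FPKM. Psmb6 lay above Psmb7 in all 6 libraries, by the least in PKO 3 (213.7 against 212.5 FPKM), and the place of Psmb5 varied.

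In the 19S particle, Psmc3 (247 FPKM) and the lid gene Psmd8 (245 FPKM) led, and Psmc2 (53.8 FPKM) and Psmd11 (63.0 FPKM) came last. The ATPase genes spanned 4.59-fold and the other 19S genes 3.89-fold. Psme3, Psme4, Psme2 and Psme1 stood at 49.1, 42.7, 35.5 and 16.6 FPKM. The chaperones stood at 25.0 (Psmd5), 16.0 (Psmd10), 13.2 (Psmd9), 21.1 (Psmg2), 19.2 (Psmg1), 14.2 (Psmg4) and 2.87 FPKM (Psmg3), Psmb10 at 11.4 FPKM and Psmf1 at 6.93 FPKM. These levels rest on the deposited gene length. With the length of the principal transcript in GENCODE M21 instead, an alternative chosen after seeing the data, Psma2 went from the first to the last alpha gene (944 against 2911 bases), and Psma7 became the first. In the beta ring Psmb1 went from the first place to the last, and Psmb3 from the last to the second. Psmc2 was then no longer the last ATPase gene, at 104.6 CPM per kilobase against 88.2 for Psmc6. The fold range of the core became 4.10, and that of the ATPases 3.12.

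**Figure D5:**
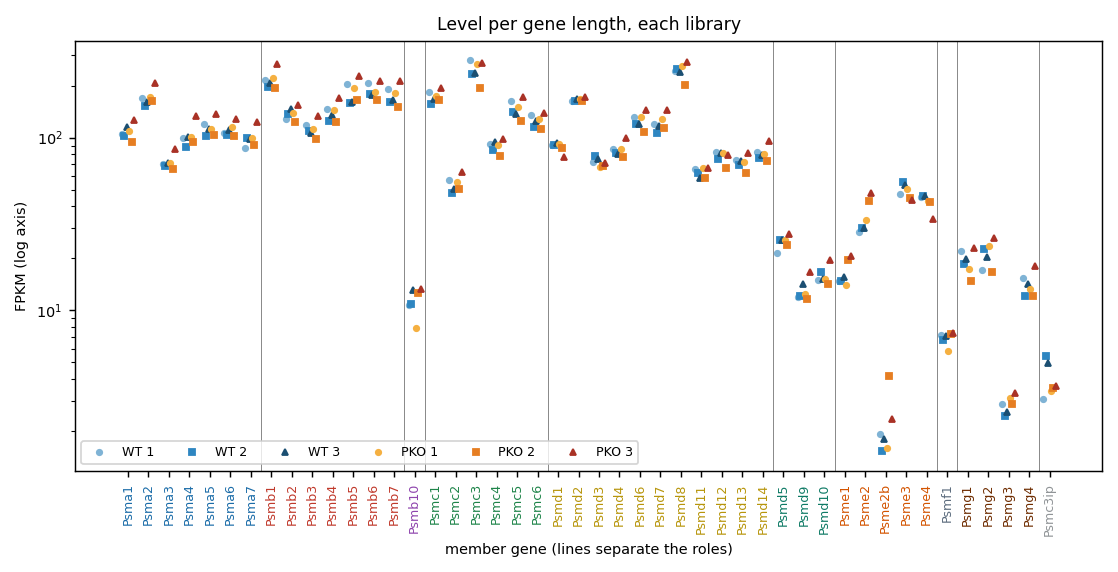
FPKM (log axis) of each member in each of the 6 libraries, with members grouped by role, and WT and PKO libraries in different colours (Psmb11 is not drawn). The core and 19S genes lie between 53.8 and 247 FPKM on average, and the chaperones, activators, Psmb10 and Psmf1 lie below them, from 49.1 FPKM (Psme3) to 2.23 FPKM (Psme2b).

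Genes that act with the proteasome also had a median difference near 0. The list held 34 genes: further 19S subunits and maturation factors, shuttle factors and segregases, ubiquitin genes, E1 enzymes, and the regulators of proteasome gene expression. Of the 33 in the table, all tested, 19 were fitted higher and 14 lower with a median log2 fold change of 0.03, and 0 passed the edgeR test. DESeq2 called 1 of 33, against 5.66% of all genes it tested. At an unadjusted edgeR p under 0.05 there were 2 of 33, against 16.5% of all tested genes. Those 2 were Sqstm1, an autophagy receptor for ubiquitinated cargo, and Nfe2l2, which encodes NRF2, the regulator of antioxidant genes.

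Sqstm1 was measured at 622, 375 and 361 CPM in WT and at 661, 967 and 1002 CPM in PKO libraries, a log2 fold change of 0.95 ± 0.27 (SE, edgeR adjusted p = 0.190, DESeq2 adjusted p = 0.0162). Nfe2l2 gave 161, 158 and 171 CPM in WT and 190.3, 216 and 245 CPM in PKO libraries (0.41 ± 0.13, edgeR adjusted p = 0.216). All PKO libraries lay above all WT libraries for both genes, by little for Sqstm1, where WT 1 came close to PKO 1. The NRF2 target list (10 genes, Prdx1 and Txnrd1 the most abundant) had medians of 0.74, 1.67 and 1.73 in PKO libraries relative to the WT mean. At an unadjusted edgeR p under 0.05 there were 9 of 10, against 16.5% of all tested genes, and 0 passed after adjustment. DESeq2 called 7 of 10, against 5.66% of all genes it tested. The proteasome members had medians of -0.01, -0.17 and 0.16 in the same libraries. Nfe2l1, which encodes NRF1, the factor known to induce proteasome genes when proteasome activity is short, gave 685, 441 and 423 CPM in WT and 609, 515 and 503 CPM in PKO libraries. WT 1 was its highest library and the groups overlapped (0.07 ± 0.21, adjusted p = 0.888).

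Among the other genes of the list with the smallest p were Nfe2l3, Ubqln4 and Shfm1. Nfe2l3, a relative of NRF1, was measured at 0.650, 0.196 and 0.274 CPM in WT and at 1.23, 1.08 and 0.462 CPM in PKO libraries (1.28 ± 0.62, edgeR adjusted p = 0.343). Its group means, 0.373 CPM in WT and 0.923 CPM in PKO, were low, so this fold change rests on few reads. Ubqln4, a shuttle factor, gave 139.9, 144 and 139 CPM in WT and 133, 119.6 and 113 CPM in PKO libraries (-0.21 ± 0.11, adjusted p = 0.368). Its groups did not overlap, the PKO libraries being lower. Shfm1, the small 19S subunit now called Sem1, gave 72.9, 65.8 and 59.3 CPM in WT and 75.7, 70.9 and 96.5 CPM in PKO libraries (0.30 ± 0.15). Its groups overlapped, with PKO 3 the highest library. Pomp, the maturation factor of the 20S particle, had a log2 fold change of 0.09 ± 0.15.

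Promoters of the catalytic genes Psmb5 and Psmb6 and of the PA28 gene Psme1 are shown. NRF1 and NRF2 are known to bind antioxidant response elements, and interferon-induced factors elements of their own. RefSeq windows of 250 bases before to 50 after the start (GRCm38.p6) were found for 40 of the 47 members. Psmb7, the other catalytic gene, was among the 7 members without a window. The antioxidant response element core, TGACNNNGC on either strand, was present in 6 of the 40 (15%), against 14% of all 27025 genes with a window: Psmb5, Psmb6, Psmc6, Psmd12, Psmd9 and Psme4. The CCAAT box, searched as CCAAT on either strand, was present in 14 of 40 (35.0%), against 41.1% of all genes. Capitals mark the antioxidant element in the windows of Psmb5 (chr14:54617946-54618245, minus strand, first base of the match at -47) and Psmb6 (chr11:70525107-70525406, plus strand, first base at -9).
Psmb5: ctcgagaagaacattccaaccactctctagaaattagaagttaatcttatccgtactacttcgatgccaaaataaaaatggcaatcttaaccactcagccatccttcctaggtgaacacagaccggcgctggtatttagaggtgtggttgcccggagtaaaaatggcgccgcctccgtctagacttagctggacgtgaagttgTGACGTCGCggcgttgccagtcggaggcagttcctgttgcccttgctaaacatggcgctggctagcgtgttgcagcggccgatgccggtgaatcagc
Psmb6: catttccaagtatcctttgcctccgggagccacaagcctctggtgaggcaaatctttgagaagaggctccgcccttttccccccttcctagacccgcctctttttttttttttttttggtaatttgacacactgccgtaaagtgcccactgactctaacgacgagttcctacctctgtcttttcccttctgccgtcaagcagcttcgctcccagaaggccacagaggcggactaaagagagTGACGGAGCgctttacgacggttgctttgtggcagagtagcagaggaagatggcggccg

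Psmb5 and Psmb6 had log2 fold changes, PKO over WT, of 0.11 ± 0.16 and -0.06 ± 0.14 (SE), as given above. The interferon-stimulated element core, GAAA, any 2 bases and GAAA on either strand, a motif added after seeing the values, was present in 5 of 40 members (12.5%), against 3.99% of all genes: Psmb3, Psmd4, Psmd9, Psme1 and Psmg4. Psme1, a PA28 gene, had a log2 fold change of 0.20 ± 0.16 (SE, edgeR adjusted p = 0.552). Its PKO 2 and PKO 3 values lay above the WT range and PKO 1 below it. The log2 fold changes of the others were -0.01 (Psmb3), 0.03 (Psmd4), 0.03 (Psmd9) and -0.00 (Psmg4). The window of Psme1 (chr14:55578244-55578543, plus strand) is shown with the match in capitals, which lies on the other strand with its first base at 10.
Psme1: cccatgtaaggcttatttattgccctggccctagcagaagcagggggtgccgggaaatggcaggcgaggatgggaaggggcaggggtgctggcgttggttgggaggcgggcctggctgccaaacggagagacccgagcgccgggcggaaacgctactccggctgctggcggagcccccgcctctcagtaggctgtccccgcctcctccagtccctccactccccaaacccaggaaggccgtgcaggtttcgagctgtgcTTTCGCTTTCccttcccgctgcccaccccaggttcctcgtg

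The windows of Psme2, for which every PKO library lay above the WT range, hold no match of these letters and are not printed. A match is a stretch of letters, and binding was not measured.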

How the data were processed

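Polyadenylated RNA of 3 WT and 3 PKO libraries was sequenced as 150 bp pairs, mapped with TopHat2 to GRCm38 (mm10), and counted by gene using HTSeq 0.6.1, per the submitters' processing notes. The sources used here give neither annotation version nor strand setting. The deposited read counts, whole numbers per gene and library, carried all tests. The deposited FPKM values, which the authors computed from counts and gene length, served for levels between genes. The log2 fold changes and p-values in the authors' deposited table were made with DESeq2 or edgeR, both named in the series text, and are printed only under that name. The deposited normalized signal, counts the authors divided by a factor per library, was not used. Libraries and columns were grouped by titles and column names.

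Counts were tested with edgeR 4.0.16 in R 4.3.3 (filterByExpr, TMM, robust quasi-likelihood fit, genotype only), with Benjamini-Hochberg adjustment over 14025 genes and a threshold of 0.05. The SE is the fitted value over the root of its F statistic, and log2 CPM used a prior count of 2. DESeq2 1.42.0, limma-voom (limma 3.58.1), 3 other scalings, 2 other filters, a replicate block and leaving out each library were alternatives. Removing a length trend (loess, span 0.5), leaving out WT 1 and PKO 1 together, and principal transcript lengths were added after seeing the data. The fit was run on simulated counts to check the code, and its power on these data is not reported here.

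The name rule used no measured value. Rule and lists were still set with earlier results of these data known, so their counts are descriptions. Named in full were the 4 members of smallest p in roles of over 4 genes, all members of smaller roles, Pnpla2, the 6 pathway genes of smallest p and the 2 most abundant genes of each context list, except genes not reported here. Per-library depth was 15580176 to 18839151 counts. Members with few reads, Psmg3 (92 to 150 per library) among them, carry more counting error than the abundant ones, and its size was not measured separately. Exons of 13 members overlap those of another gene in GENCODE M21, over more than 20% of the deposited length in 3. WT and PKO libraries of the same number did not deviate together, so numbers were not taken as pairs.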

Additional observations from a re-analysis of the deposited data

How the results depend on the processing

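No member passed the edgeR threshold in the alternatives run, except that 1, Psme2, passed with WT 1 and PKO 1 both left out. In that setting 4 members (Psme2, Psme1, Psme3 and Psmc3ip) had an unadjusted p under 0.05 (8.7%, against 32% of all genes tested there), and leaving out each library in turn gave 0 to 2. Over all genes the count called moved from 0 to 917 with DESeq2, to 1 with the replicate block, to 2266 with WT 1 and PKO 1 left out, and to 0 to 1000 with each library left out (1000 without WT 1, 737 without PKO 1). Same-numbered WT and PKO libraries had deviations correlated at r = 0.10, -0.03 and 0.13 across genes, so the numbers were not treated as pairing. The replicate block called 0 members, with 21 of 46 fitted higher and a median log2 fold change of -0.01. Pnpla2 was called at -1.23 with DESeq2, at -1.20 with WT 1 and PKO 1 left out (adjusted p = 0.00734) and at -1.44 without WT 1 (adjusted p = 0.0355), within a leave-one-out range of -1.44 to -0.98. Members fitted higher numbered 6 to 36, and the members' median ran from -0.09 to 0.10, over the leave-one-out fits. The pathway list's median stayed between -0.00 and 0.09 in all alternatives. The 20S fold range was 2.99 in CPM per kilobase and 4.10 with principal transcript lengths. The cause of these shifts was not tested. With 3 libraries per group an exact test cannot go below p = 0.1. Depth limits Psmb11, and Psme2b and Psmc3ip in part, whose intervals reach past a 2-fold change.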

Other observations

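Other gene lists departed more than the proteasome genes did in the same libraries. Of all tested genes, 48.3% were fitted higher in PKO, 16.5% had an unadjusted edgeR p under 0.05 and 0% passed after adjustment. DESeq2 called 5.66% of the genes it tested. The sarcomere list had 8 of 8 genes fitted lower in PKO, with a median log2 fold change of -0.52. At an unadjusted edgeR p under 0.05 there were 3 of 8, with 0 after adjustment and 1 called by DESeq2. With the gene-length trend removed the list's median was -0.43, and the log2 fold change of Ttn, a very long transcript, went from -0.98 to -0.32. Myh3, embryonic myosin, had 8759 ± 910.3 CPM in WT libraries and 5437 ± 1651 CPM in PKO libraries (SD, n = 3 libraries each), and Ttn, titin, at 6197 ± 1401 and 3152 ± 1247 CPM. Both had every PKO library below every WT library. The myogenic list had 9 of 9 fitted lower with a median of -0.27, Myog standing at 2682 ± 152 and 2349 ± 138 CPM and Des at 2505 ± 246 and 2184 ± 445 CPM.

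The cell cycle list had 8 of 8 fitted lower with a median of -1.37. At an unadjusted edgeR p under 0.05 there were 6 of 8, against 16.5% of all tested genes, and 0 after adjustment. DESeq2 called 3 of 8, against 5.66% of all genes it tested. Top2a was measured at 46.7, 239 and 259.9 CPM in WT and at 62.9, 61.0 and 68.4 CPM in PKO libraries, and Mki67 at 33.7, 204 and 209 CPM in WT and at 44.9, 42.2 and 40.6 CPM in PKO libraries. WT 1 lay below the PKO libraries or among them for both, so the groups overlapped. Without WT 1 the edgeR adjusted p was 0.00514 for both Top2a and Mki67. Of the NRF2 targets, Prdx1 gave 386, 366 and 383 CPM in WT and 406, 768 and 979 CPM in PKO libraries, and Txnrd1 gave 291, 269 and 262 CPM in WT and 326, 525 and 464 CPM in PKO libraries, with PKO 1 nearest to WT. Of the stromal list, Col3a1 gave 371, 268 and 295 CPM in WT and 458, 680.3 and 643 CPM in PKO libraries.

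The other cell type lists differed in level. The endothelial list summed to 10.8 to 13.5 CPM in WT and 12.6 to 16.8 CPM in PKO libraries (Vwf at 8.89 ± 1.84 and 6.43 ± 0.553 CPM, Cdh5 at 1.03 ± 0.584 and 4.45 ± 2.03 CPM). The leukocyte list summed to 6.22 to 7.62 and 13.3 to 18.8 CPM, with Lyz2 at 0.673 ± 0.792 and 7.04 ± 1.78 CPM, Itgam at 2.94 ± 0.857 and 2.10 ± 0.458 CPM, and Adgre1 not in the table. The pericyte list summed to 69.8 to 175.6 and 172 to 221 CPM, with Abcc9 at 81.4 ± 31.5 and 67.7 ± 18.0 CPM and Rgs5 at 17.2 ± 21.5 and 98.8 ± 56.1 CPM. Of the tested genes, 4 of 5 endothelial, 3 of 4 leukocyte and 2 of 3 pericyte genes were fitted higher in PKO, against 48.3% of all tested genes. The Schwann list, with 1 of 4 genes tested, summed to 1.00 to 3.72 CPM in WT and 2.19 to 5.64 CPM in PKO libraries. The part of these lists in any proteasome value was not tested.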
